A study of Drosophila melanogaster with 4 samples.

Results

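The genes described here are those of the Hippo growth control pathway in Drosophila melanogaster, measured in RNA that was co-immunoprecipitated with the splicing factor dASF/SF2. The list held 10 genes (hpo, sav, wts, mats, yki, ex, Mer, kibra, sd and d), and a gene entered when a probe of the array carried its symbol and no other. Of the 10 genes, 8 had such a probe, 1 each, of 12236 genes with a probe of 1 symbol. All 8 probes had a value on all 4 arrays. No probe carried sd or d as its only symbol, so these genes were not analysed here.

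Each array compared an anti-GFP immunoprecipitate (IP) from GMR X GFP-dASF/SF2 larvae with one from GMR X GFP-NLS larvae, the control. GMR is a driver that is active in the developing eye, GFP-dASF/SF2 is a GFP fusion of an SR-family splicing factor, and GFP-NLS is GFP with a nuclear localisation signal. Both kinds of extract came from the dissected anterior part of larvae in the third instar, with 600 larvae pooled in each, so they also held tissues in which GMR is not active. There were 4 arrays. In the 2 Cy5 arrays (replicates 1 and 2) RNA of the dASF/SF2 IP carried Cy5 and that of the control Cy3. In the 2 Cy3 arrays, which by the study's design text are their dye swaps, RNA of the dASF/SF2 IP carried Cy3 and that of the control Cy5.

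The Hippo pathway limits organ size in flies and other animals. The kinase Hippo, held by the scaffold Salvador, activates the kinase Warts together with its partner Mats, and Warts phosphorylates the coactivator Yorkie and so keeps it out of the nucleus, where it would otherwise switch on growth and survival genes with the DNA-binding protein Scalloped. Expanded, Merlin and Kibra act at the apical cortex to switch the kinases on, and the atypical cadherin Fat acts through the myosin Dachs. In the eye, loss of the kinases is known for overgrown tissue with surplus cells between the ommatidia.

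The values were the authors' deposited log ratios, whose base and numerator no source used here gives, so they are in log-ratio units with no fold. Each array was centred on its median, which moved values by 0.013 at most. If the ratios are Cy5 over Cy3 or the reverse, a difference between the IPs has opposite signs on dye-swapped arrays, and the Cy3 arrays have to be turned before averaging ("turned" values). If the ratios were already put in terms of the samples, the difference has the same sign on all arrays and the values as deposited are to be averaged ("unturned" values). Over the 12847 probes measured on every array, the dye-swapped arrays of replicate 1 correlated at a Pearson r of 0.236 and those of replicate 2 at -0.054, across probes that are not independent. Over the 10850 of them with a single symbol, the same pairs correlated at 0.169 and -0.565. Between arrays of opposite orientation and different replicate number, r over all probes was -0.219 and -0.069 (-0.305 and -0.12 over single-symbol probes), so 3 of the 4 pairs of opposite orientation were negative. Between arrays of the same orientation it was 0.435 (Cy5) and 0.264 (Cy3). The means of the replicates correlated at 0.548 turned and 0.160 unturned over all probes. Since the dye-swapped pairs of the replicates differed in sign, neither reading was taken as settled, and both are given. A positive value is not assigned to either IP.

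Of the kinase module, hpo, sav and wts had positive unturned means of like size and mats a negative one, and none of the 4 passed the test. For hpo, which encodes the upstream kinase, the Cy5 arrays had centred values of 0.179 and -0.018 (replicates 1 and 2), and the Cy3 arrays had 0.214 and 0.151. For sav, the scaffold of Hippo, they were 0.195 and -0.002 on the Cy5 arrays and 0.250 and 0.075 on the Cy3 arrays. For wts, the kinase that acts on Yorkie, they were 0.200 and 0.038 on the Cy5 arrays and 0.263 and 0.015 on the Cy3 arrays. In all 3 genes the 2 dye orientations overlapped, and both arrays of replicate 1 were high whichever dye dASF/SF2 carried.

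The unturned means of these 3 genes were 0.13 ± 0.09 for hpo, 0.13 ± 0.13 for sav and 0.13 ± 0.14 for wts (SD, n = 2 replicates), with adjusted p-values of 0.753, 0.756 and 0.766 by limma's moderated test across 12847 probes. Their turned means were -0.051 ± 0.047, -0.033 ± 0.008 and -0.010 ± 0.030. The value of replicate 1 was the larger in each gene on the unturned scale, at 0.197, 0.223 and 0.232, against 0.067, 0.037 and 0.027 in replicate 2. The 95% intervals of the unturned means ran from -0.073 to 0.336 for hpo, -0.091 to 0.350 for sav and -0.097 to 0.355 for wts, so each included 0.

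Ranks within an array are the same for any base. hpo lay at percentiles 77.0 and 46.5 of the probes of the Cy5 arrays (replicates 1 and 2) and at 85.8 and 73.6 of the Cy3 arrays. sav lay at 78.8 and 49.6 on the Cy5 arrays and at 88.9 and 63.1 on the Cy3 arrays. wts lay at 79.4 and 57.6 on the Cy5 arrays and at 90.0 and 53.1 on the Cy3 arrays. The 3 genes were thus in the upper part of both arrays of replicate 1 and nearer the middle on the arrays of replicate 2, hpo on the Cy3 array being the highest there.

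The 4-array profiles of sav and wts were the closest of the 28 gene pairs, at a Euclidean distance of 0.073, followed by hpo and sav at 0.087 and hpo and wts at 0.156. As a measure of how common such likeness was, 17 probes other than that of sav (0.132%) lay at least as near to sav as wts did. Likewise 235 other than that of hpo (1.83%) lay at least as near to hpo as wts did. The probe of wts can itself be in these counts, and that of sav is among the 235. These distances rest on 4 arrays and are a description.

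mats encodes the activating partner of Warts, and its probe lay on the other side. Its centred values were -0.186 and -0.001 on the Cy5 arrays and -0.111 and -0.187 on the Cy3 arrays. None of the 4 was positive after centring, although the deposited value on the Cy5 array of replicate 2 was 0.012. By rank, mats lay at percentiles 24.4 and 49.9 of the Cy5 arrays and at 28.8 and 17.3 of the Cy3 arrays, at or below the middle of each. The unturned mean was -0.12 ± 0.04 and the turned mean 0.028 ± 0.092 (adjusted p = 0.756 and 0.838 by limma). The 4 genes of the kinase module therefore did not share a sign on the unturned scale.

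**Figure D1:**
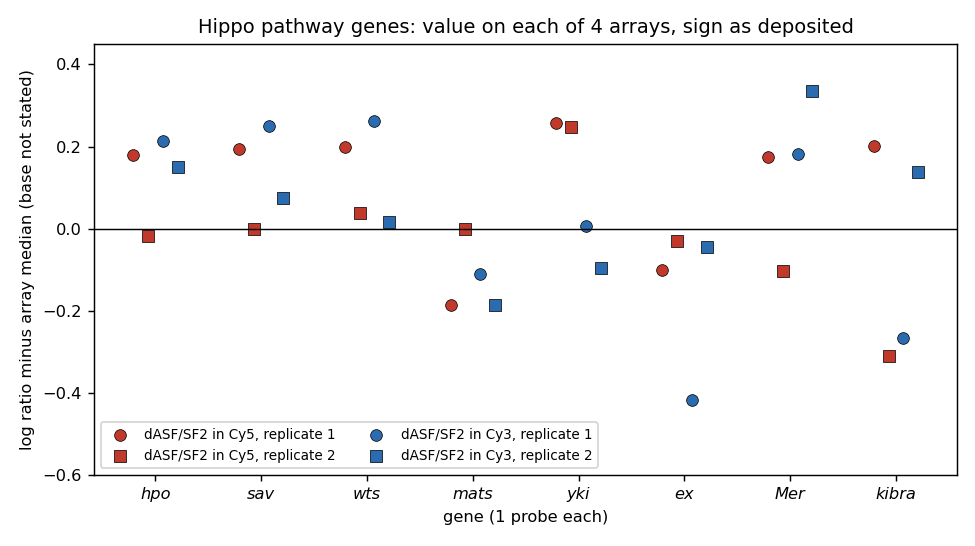
Centred log ratio (y axis, base not stated) of the probe of each of 8 Hippo pathway genes (x axis) on each of the 4 arrays, with the sign as deposited. Red marks arrays with dASF/SF2 in Cy5 and blue those with dASF/SF2 in Cy3; circles are replicate 1 and squares replicate 2. For hpo, sav and wts both circles lie between 0.179 and 0.263, and for yki both red points lie near 0.25 while the blue points are at 0.007 and -0.096.

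yki encodes the transcriptional coactivator that Warts holds back, and it had the largest turned mean of the 8 genes by size. Its centred values were 0.257 and 0.247 on the Cy5 arrays, and 0.007 and -0.096 on the Cy3 arrays. The orientations did not overlap, and the values on the Cy5 arrays were close to each other. By rank, yki lay at percentiles 85.6 and 89.1 of the Cy5 arrays and at 51.6 and 28.0 of the Cy3 arrays. The turned mean was 0.15 ± 0.03 (SD, n = 2 replicates; 95% interval -0.018 to 0.314), with an adjusted p of 0.253 by limma. Over 13 alternative settings its turned mean stayed positive, from 0.082 (without the Cy5 array of replicate 1) to 0.214, with adjusted p-values from 0.121 to 0.857 by limma. Settings that changed only the error model or the set of probes fitted left the mean at 0.148 by construction. Only the other settings could have changed its sign. The unturned mean was 0.10 ± 0.04 (adjusted p = 0.772 by limma).

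The means of the 3 genes of the apical complex did not share a sign on either scale, and none of the 3 passed the test. ex encodes a FERM-domain protein of the apical cortex and is itself a target of Yorkie. Its centred values were -0.102 and -0.030 on the Cy5 arrays and -0.417 and -0.044 on the Cy3 arrays. It was negative on all 4 arrays, but 1 value was far lower than the rest, at percentile 4.34 of its array where the others were at 34.8, 43.9 and 37.0, and the replicates had unturned values of -0.260 (replicate 1) and -0.037 (replicate 2). The unturned mean was -0.15 ± 0.16 (95% interval -0.381 to 0.084) and the turned mean 0.082 ± 0.106 (adjusted p = 0.754 and 0.534 by limma).

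Mer encodes Merlin, the fly relative of the human tumour suppressor NF2. Its centred values were 0.175 and -0.103 on the Cy5 arrays and 0.183 and 0.335 on the Cy3 arrays. Here too the orientations did not overlap, but the values nearest to each other, 0.175 and 0.183, were both from replicate 1. By rank, Mer lay at percentiles 76.5 and 31.4 of the Cy5 arrays and at 82.3 and 89.8 of the Cy3 arrays. The turned mean was -0.11 ± 0.15, with -0.004 in replicate 1 and -0.219 in replicate 2, and the unturned mean was 0.15 ± 0.04 (adjusted p = 0.444 and 0.752 by limma). Without 1 array, the turned mean was -0.201 (Cy5, replicate 1), -0.170 (Cy5, replicate 2), -0.022 (Cy3, replicate 1) or -0.054 (Cy3, replicate 2). The unturned mean was 0.257 without the Cy5 array of replicate 2 and 0.038 without the Cy3 array of replicate 2.

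kibra encodes a WW-domain scaffold that binds Merlin and Expanded. Its centred values were 0.202 and -0.311 on the Cy5 arrays and -0.267 and 0.138 on the Cy3 arrays. Its dye-swapped arrays had opposite signs in both replicates, which none of the other 7 genes showed in replicate 1, but the replicates had opposite directions. By rank, it lay at percentiles 79.7 and 8.75 of the Cy5 arrays and at 10.3 and 72.0 of the Cy3 arrays, so it was high on 1 array of each orientation and low on the other. The turned value was 0.234 in replicate 1 and -0.224 in replicate 2, which gave a mean of 0.005 ± 0.325, the widest replicate spread of the 8 genes. The unturned mean was -0.060 ± 0.038 (adjusted p = 0.985 turned and 0.856 unturned by limma).

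**Figure D2:**
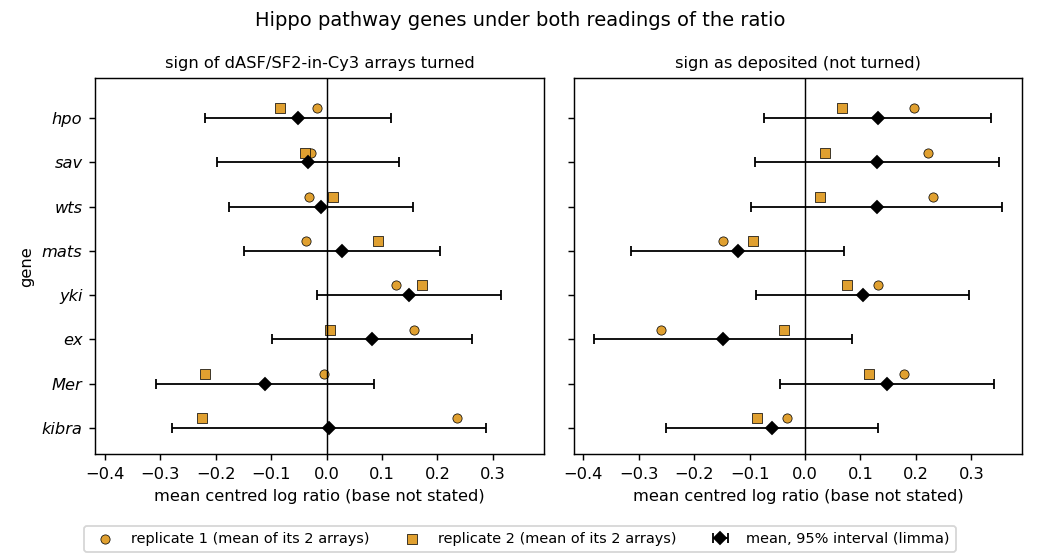
Mean centred log ratio (x axis, base not stated) of each of the 8 genes (rows), with the sign of the arrays with dASF/SF2 in Cy3 turned (left) and as deposited (right). Diamonds with bars are the mean of 2 replicates with its 95% interval from limma, and orange circles and squares are replicates 1 and 2. Every interval includes 0 in both panels; kibra's replicates lie at 0.234 and -0.224 on the left.

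No gene of the 8 passed an adjusted p of 0.05 by limma, turned or unturned, and 0 of the 8 had an unadjusted p under 0.05 on either scale. Over all 12847 probes, 0% passed on either scale, and 23.2% (turned) and 5.57% (unturned) had an unadjusted p under 0.05. Of the 8 genes, 0 had 1 sign on all 4 turned arrays, where 28.1% of all probes did. On the unturned scale wts (positive), mats and ex (negative) had 1 sign on all arrays, and 13.6% of all probes did. Without centring, the deposited values of sav were also positive on all 4 arrays and those of mats were not all negative, with 13.7% of all probes having 1 sign.

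The orientations did not overlap for yki, which was higher on the Cy5 arrays (as were 26.3% of all probes), and for Mer, which was lower (as were 28.4%). The median turned mean was -0.003 over the 8 genes and 0.004 over all probes. The median unturned mean was 0.116 over the 8 genes, 5 of them positive, and 0.009 over all probes, of which 53.2% were positive. Each interval spanned 0, but its width, a median of 0.346 (turned) and 0.405 (unturned) over all probes, leaves room for differences as large as the means given.

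The replicates stood apart in how the dye swap behaved. In replicate 1 the centred values of 7 of the 8 genes, kibra being the exception, had the same sign on both dye orientations, against 54.8% of all probes. In replicate 2 those of 3 of the 8 (wts, mats and ex) did, against 31.2% of all probes. Without the Cy3 array of replicate 1, the turned means of hpo, sav and wts were 0.047, 0.078 and 0.106, those of mats, ex and kibra were -0.047, -0.048 and -0.011, and each of these 6 had changed sign. The turned mean of yki was 0.214 without that array. The unturned means of hpo, sav, wts, mats, yki, ex and Mer kept their sign without any 1 array, but not all kept their size. That of yki was 0.041 and 0.018 without the Cy5 arrays of replicates 1 and 2, and 0.166 and 0.190 without the Cy3 arrays. That of mats was -0.075 without the Cy3 array of replicate 2, and that of ex was -0.227 without the Cy5 array of replicate 1 and -0.070 without the Cy3 array of replicate 1. The ranges were narrower for hpo (0.089 to 0.174), sav (0.110 to 0.149) and wts (0.113 to 0.145), while that of kibra changed sign, at 0.058 without the Cy3 array of replicate 1 and 0.053 without the Cy5 array of replicate 2.

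**Figure D3:**
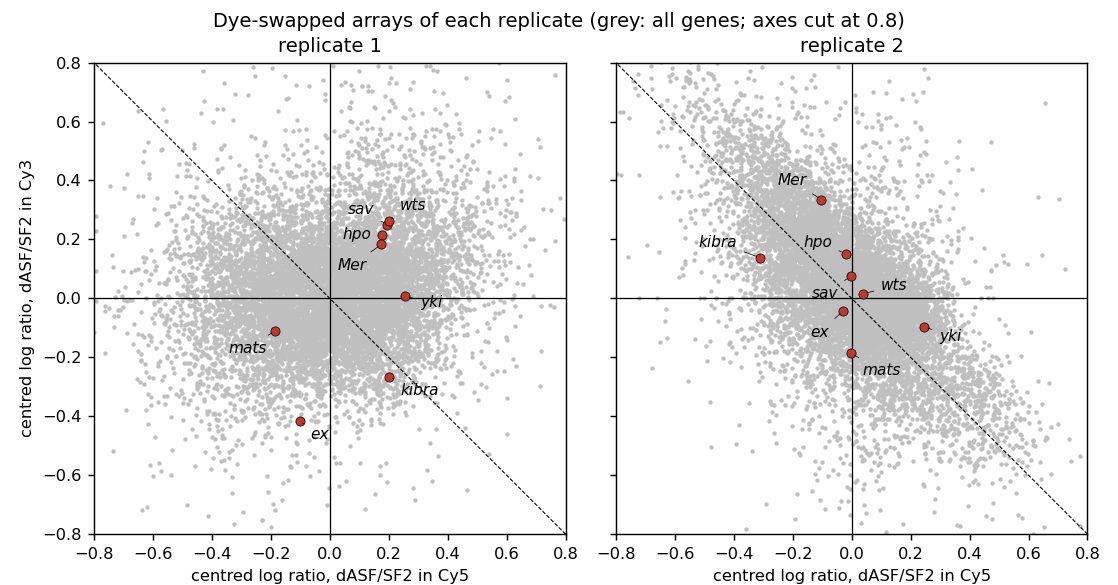
Centred log ratio on the Cy5 array (dASF/SF2 in Cy5, x axis) and on the Cy3 array that is its dye swap (y axis), for replicate 1 (left) and replicate 2 (right), base not stated. Grey points are all genes, red points the 8 Hippo pathway genes, and the dashed line marks equal and opposite values; genes beyond 0.8 are not drawn. In replicate 1, 7 of the 8 genes lie where both values have 1 sign, and in replicate 2 the grey cloud follows the dashed line.

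Genes around the core were taken from 5 lists, from the Fat branch to Yorkie's targets. The lists were chosen with earlier results of these data known, so their counts and medians are a description and no test. Genes named from a list are those with its largest turned means by size. Of 64 listed genes, 54 had a single-symbol probe and 52 a value on all arrays. With 1 value per gene, 37 of the 52 had a negative turned mean and 15 a positive one, with a median of -0.091, where 49.7% of all 10353 genes were negative and their median was 0.001. Unturned, 27 were negative and 25 positive, with a median of -0.001, beside 55.6% positive and a median of 0.014 over all genes. The negative lean beside all genes was thus larger on the turned scale. Unturned, 4596 of the 10353 genes were negative. By list, in the order below, the unturned medians were 0.009, -0.023, -0.006, 0.003 and 0.089. Values below are turned unless stated otherwise. On all 4 turned arrays 15 were negative, against 16.5% of all genes. An unadjusted p under 0.05 by limma was found for 17 of the 52, against 24.1% of all genes. Of these, 15 were negative, against 15% of all genes with such a p and a negative mean. In the adjusted test, 0 of the 52 passed 0.05 by limma, as 0.029% of all genes did. Without the Cy5 array of replicate 1 the median of the 52 was -0.019 and 31 were negative. Over all genes it was then -0.0115, with 5608 of 10512 negative, so the lean beside all genes was smaller. Without the Cy3 array of replicate 2, 33 of the 52 were negative, beside 5254 of 10678 genes. It was 39 of the 52 without the Cy5 array of replicate 2 and also without the Cy3 array of replicate 1.

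The Fat-Dachsous list had 6 of 7 measured genes negative and a median of -0.152, but -0.050 with 5 negative without the Cy5 array of replicate 1. ft, the gene of Fat, had no single-symbol probe. fj encodes a Golgi kinase that modifies Fat and Dachsous, and its turned values were -0.337 and -0.421 on the Cy5 arrays and -0.479 and -0.576 on the Cy3 arrays. All 4 lay below 0 and the mean was -0.45 ± 0.06 (adjusted p = 0.0614 by limma over genes). Fbxl7, an F-box protein of the Fat branch, had -0.30 ± 0.14 and ds, the cadherin ligand of Fat, -0.17 ± 0.01. ds was at -0.11 without the Cy3 array of replicate 2. Unturned means were 0.074 for fj, 0.0295 for Fbxl7 and 0.0615 for ds.

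beta-Spec and kst, the spectrin genes measured, had the largest turned means by size among the 52. The listed alpha-Spec had no single-symbol probe. beta-Spec encodes the beta subunit of spectrin, the mesh under the cell membrane, and kst (karst) the heavy beta subunit of the apical mesh. The turned values of beta-Spec were -0.511 and -0.676 on the Cy5 arrays, and -0.457 and -0.929 on the Cy3 arrays. Those of kst were -0.651 and -0.647 on the Cy5 arrays, and -0.348 and -0.844 on the Cy3 arrays. Both genes were well below 0 on every array.

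The means were -0.64 ± 0.23 for beta-Spec and -0.62 ± 0.17 for kst (SD, n = 2 replicates), with adjusted p-values of 0.0546 and 0.0521 by limma over genes, just short of the threshold. Over 11 alternatives both passed in 8, with adjusted p-values from 0.00717 (beta-Spec) and 0.00402 (kst) to 0.228 by limma, the highest without the Cy5 array of replicate 2. Their unturned means were 0.050 ± 0.109 and -0.027 ± 0.177. Of the 14 measured genes of apical polarity and the cortex, 9 were negative and the median was -0.114, which was 0.001 and -0.052 without the Cy5 arrays of replicates 1 and 2. scrib, a basolateral polarity gene, had -0.23 ± 0.06, and -0.12 without the Cy3 array of replicate 1. Its unturned mean was 0.17.

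Among kinases, ligases and scaffolds that act on the core, 12 of 15 genes were negative, with a median of -0.054. Without the Cy5 array of replicate 1 the median was -0.027 and 9 were negative. It was -0.097 with 11 negative without the Cy3 array of replicate 1, and -0.072 with 8 negative without the Cy3 array of replicate 2. jub encodes Ajuba, a LIM protein that binds Warts at cell junctions, and its turned values were -0.431 and -0.394 on the Cy5 arrays, and -0.246 and -0.514 on the Cy3 arrays. The mean was -0.40 ± 0.08 (adjusted p = 0.0681 by limma over genes). Su(dx), a ubiquitin ligase, had -0.38 ± 0.10, and Tao, the kinase that activates Hippo, -0.25 ± 0.03. Without the Cy5 array of replicate 1, Su(dx) was at -0.23, and without the Cy3 array of replicate 2, Tao was at -0.14. Unturned means were -0.016 for jub, -0.20 for Su(dx) and 0.070 for Tao.

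Of 13 measured genes listed as cofactors of Yorkie, 9 were negative, with a median of -0.136, which was -0.062 without the Cy5 array of replicate 1. The list was broader than coactivators and also held Tgi, 14-3-3zeta and 14-3-3epsilon. brm, the ATPase of a chromatin remodelling complex, had -0.33 ± 0.04, mask, a partner of Yorkie with ankyrin repeats, -0.26 ± 0.03, and trr, a histone methyltransferase, -0.24 ± 0.07. mask and trr were negative on all 4 turned arrays within narrow ranges, from -0.319 to -0.190 and from -0.332 to -0.172. brm was at -0.21 without the Cy5 array of replicate 1. Unturned means were -0.10 for brm, 0.003 for mask and 0.031 for trr.

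Of 9 listed targets of Yorkie only E2f1, dlp and CycE were measured. E2f1, a cell cycle transcription factor, had a turned mean of 0.18 ± 0.06, which was 0.067 without the Cy5 array of replicate 1 and 0.291 without the Cy3 array of replicate 1. dlp, a glypican, had 0.059 ± 0.012, and 0.014 and 0.016 without the Cy5 arrays of replicates 1 and 2. CycE, the cyclin of S-phase entry, had -0.039 ± 0.158 over 2 probes. Unturned means were 0.149 for E2f1, 0.089 for dlp and -0.043 for CycE. None of the 3 had an adjusted p under 0.05 by limma.

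**Figure D4:**
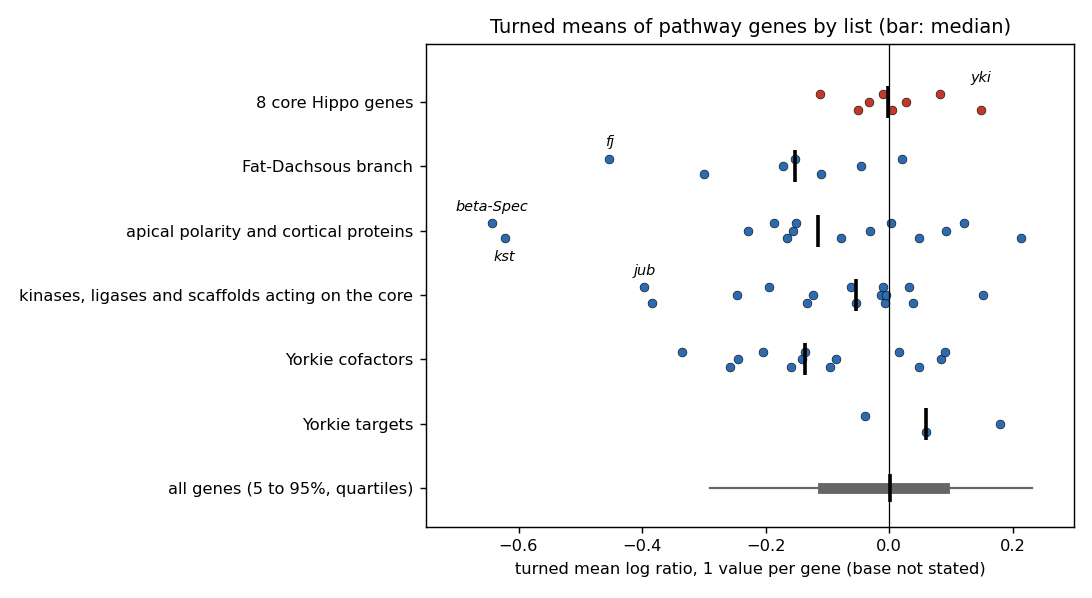
Turned mean log ratio (x axis, base not stated, 1 value per gene) of the 8 Hippo pathway genes (red) and of the measured genes of 5 pathway lists (blue), with a black bar at each median. The last row gives the median, quartiles and 5 to 95% range of all 10353 genes; beta-Spec and kst lie farthest left at -0.64 and -0.62, while the 8 genes lie between -0.11 and 0.15.

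SF2, the gene of the transgene, had turned values of -0.092 and -0.245 on the Cy5 arrays and -0.224 and -0.339 on the Cy3 arrays (mean -0.23 ± 0.09, adjusted p = 0.127 by limma over genes). Its unturned mean was 0.0565. Ratios carry no level, so the labelled tissue could not be checked by its markers. The turned medians were -0.002 for eye disc markers (8 of 9 measured, 4 negative), 0.322 for glial (5 of 5, 1 negative), -0.222 for muscle (4 of 6, 4 negative), -0.186 for fat body (3 of 5, 3 negative), -0.040 for haemocyte (5 of 5, 3 negative) and -0.088 for salivary gland markers (7 of 7, 6 negative). Unturned, these medians were 0.066, -0.003, 0.038, -0.022, 0.038 and -0.1745 in the same order. No marker passed an adjusted p of 0.05 by limma on either scale. Their part in the values of the pathway genes was not tested, nor could fewer cells of a type be told apart from less RNA per cell. None of the 4 arrays held RNA of the extract before IP. The amount of an RNA in the extract could thus not be told apart from how much of it each IP recovered. The genes whose turned profile lay nearest to the median of the 8 genes over the 4 arrays were CG5098, CG6262 and CG17190, at Euclidean distances of 0.012, 0.024 and 0.027.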

How the data were processed

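The authors deposited 1 signed score per probe and array, a log ratio of the channels for which no source used here gives base, numerator, background correction or normalisation. The value -10000 stood in 73 cells and was read as missing. Of 15744 probes, 13147 had 1 symbol in GEO's platform annotation, 99 had several and 2498 none; symbols were updated through RefSeq by Entrez identifier (12519 matched). Arrays were centred on their median, and those of a replicate number, dye swaps of each other by the study's design text, were averaged, so n = 2. The labels do not say whether replicates were separate pools of larvae, so p-values measure only the spread between these samples, possibly a technical one. The mean was tested against 0 with limma 3.58.1 (R 4.3.3; lmFit, eBayes) over the 12847 probes with all 4 values, p-values adjusted by Benjamini-Hochberg and called under 0.05; pathway genes beyond the 8 were tested with 1 value per gene. The code of the fit was run on simulated arrays drawn independently and without dye effects, which does not show how the fit performs on these arrays. Members and lists were chosen with earlier results of these data known. The text names, beside all members and SF2, up to 3 genes per list with the largest turned mean by size, any past the threshold, and the 3 genes nearest the members' median profile. The number of arrays limits the precision. No sequence is shown. Figures used matplotlib 3.10.9 in Python 3.11.15.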

Additional observations from a re-analysis of the deposited data

Results flagged for a closer look

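In wts, mats, ex and dlp both arrays of one dye orientation lay on one side of 0 after turning and both of the other orientation on the opposite side. Their unturned means were 0.129 for wts, -0.121 for mats, -0.148 for ex and 0.0892 for dlp. The test of this difference between orientations is the unturned fit, in which none of the 4 passed. For wts, mats and ex the adjusted p was 0.766, 0.756 and 0.754 in limma's moderated test over 12847 probes. With 1 value per gene, over 10353 genes, it was 0.636, 0.628 and 0.592 by limma, and 0.735 for dlp. Over all probes, 13.6% had 1 sign on all 4 unturned arrays.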

How the results depend on the processing

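None of the 8 genes passed an adjusted p of 0.05 in limma under any of 13 alternatives, turned or unturned. The count over all probes on the turned scale, 0 in the fit reported, was 1119 with the 4 arrays and the replicate number as a block, whose arrays had an estimated correlation of -0.408, and 0 of the 8 genes were among them. It was 3 with exact zeros read as missing, 3 with 1 value per gene, and 0 to 184 when 1 array was left out. Unturned it was 0 throughout. On the gene scale the block also moved SF2, fj, Fbxl7, beta-Spec, kst, jub, Su(dx), Tao, brm, mask and trr past the threshold (adjusted p from 0.00961 to 0.0427 in limma). Over 11 alternatives fj passed in 6, jub in 4, Su(dx) and brm in 3 each, and beta-Spec and kst in 8 each. These counts include fits that took dye-swapped arrays as units and fits with 1 array left out, so they are no measure of replication. A negative correlation within a block narrows the standard errors of that fit. When 1 array was left out, turned means ran from -0.149 to 0.047 for hpo, -0.144 to 0.078 for sav, -0.126 to 0.106 for wts, -0.047 to 0.102 for mats, -0.048 to 0.212 for ex, -0.201 to -0.022 for Mer, 0.082 to 0.214 for yki and -0.038 to 0.048 for kibra, and the unturned mean of kibra from -0.177 to 0.058. They ran from -0.104 to 0.026 for CycE, -0.061 to 0.074 for CG5098, -0.070 to 0.080 for CG6262 and -0.066 to 0.065 for CG17190. With arrays scaled to 1 spread kibra was at -0.0013, CG5098 at -0.0034 and CG6262 at -0.0060; CG17190 was at 0.0040 without centring and 0.0028 with zeros missing. The cause was not tested. Alternatives for genes beyond the 8 were added after seeing the data.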
